A study of Mus musculus with 12 samples.

Results

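The genes described here are the core of the canonical Wnt switch: *Ctnnb1*, which encodes β-catenin, 5 genes for the complex that destroys it (*Apc*, *Gsk3a*, *Gsk3b*, *Csnk1a1* and *Btrc*) and the 4 genes of the TCF/LEF family (*Lef1*, *Tcf7*, *Tcf7l1* and *Tcf7l2*). They were chosen by name and are 10 of the 39017 genes in the count table. All 10 passed the filter on low counts, which kept 14953 genes. RNA from whole adrenals was sequenced for 6 Ctrl and 6 βCat-GOF female mice, 10 to 11 weeks old and on a mixed sv129-C57Bl/6 background. Ctrl mice are labelled ASCre/+ by genotype but wild type (Wt) in their titles, so whether they carried the Cre as well is not settled by the labels, and βCat-GOF mice were bigenic, ASCre/+ with Ctnnb1 fl(ex3)/+. Cre is made from the locus of *Cyp11b2*, the aldosterone synthase gene, which is active in zona glomerulosa (zG) cells, and the floxed allele loses exon 3 of 1 *Ctnnb1* copy. The libraries held 14090378 to 25625494 counted reads in Ctrl and 13484675 to 24951480 in βCat-GOF mice. Markers of the cortex and medulla were present in every mouse. Every Ctrl label begins with one number and no βCat-GOF label does, so whatever that number stands for cannot be told apart from genotype.

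In a cell without a Wnt signal, β-catenin that is not held at cadherin junctions is phosphorylated first by casein kinase 1α and then by GSK3 on the APC and AXIN scaffold, and β-TrCP, the product of *Btrc*, then marks it for the proteasome. When this fails or is switched off, β-catenin enters the nucleus and binds TCF/LEF proteins on DNA, where they otherwise hold target genes silent together with TLE corepressors. In the adrenal cortex this pathway is active in the outer zone and is known for maintaining the zG. *Lef1* and *Tcf7* are themselves known Wnt targets in several tissues and are also well known in T lymphocytes.

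The sequence removed in βCat-GOF mice is shown because the phosphorylated residues lie within it. In the reference, *Ctnnb1* lies at chr9:120929216-120960507 on the plus strand (GRCm38, the assembly also called mm10), and exon 3 of the 15 exons of its reference transcript is coding sequence at chr9:120950522-120950749. The exon holds 228 bases, a multiple of 3, so the reading frame continues without it. It covers residues 5 to 81 of 781. The capitals mark the codons of serine 33, serine 37, threonine 41 and serine 45, the residues on which casein kinase 1α and GSK3 act.
Ctnnb1 exon 3: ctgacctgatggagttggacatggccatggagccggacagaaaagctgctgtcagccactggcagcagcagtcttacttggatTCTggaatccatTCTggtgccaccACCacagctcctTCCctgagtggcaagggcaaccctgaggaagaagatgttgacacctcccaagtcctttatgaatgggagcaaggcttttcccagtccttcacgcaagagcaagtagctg

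The exon makes up 6.29% of the 3623 bases of that transcript. The counts are summed over all exons of a gene, so the *Ctnnb1* count does not check whether the exon was removed.

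In βCat-GOF adrenals, *Tcf7* rose and the other 9 genes did not pass the main test, that of edgeR. The fold of *Ctnnb1* itself had a 95% interval of 0.871 to 1.11, and the intervals of the 5 genes of the destruction complex lay between 0.825-fold and 1.29-fold. *Lef1* had the largest estimate, with a mean 1.87-fold higher and a wide spread between mice, and its call depended on the test. A total of 1 of 10 genes was higher and 0 were lower at an adjusted p under 0.05 (edgeR's quasi-likelihood test), where 2.16% of all genes tested were higher and 1.52% were lower. At an unadjusted p under 0.05, 3 of the 10 were higher and 0 were lower, where 9.73% of all genes were higher and 10.7% lower. DESeq2 called 2 of the 10 higher (*Tcf7* and *Lef1*) and 0 lower, where it called 4.11% of the 16438 genes it tested higher and 3.46% lower. The study's 3 cut-offs (base mean over 100, adjusted p under 0.05 and more than 1.4-fold) were passed upwards in edgeR by *Tcf7* alone, where 1.48% of all genes passed upwards and 0.869% downwards. In DESeq2, the tool the authors used, *Lef1* passed them as well, where 2.21% of all genes passed upwards and 1.72% downwards. The study names *Tcf7* and *Lef1* among the Wnt genes it found higher. *Tcf7* was also the 1 gene whose groups did not overlap, where 1.61% of all genes had every βCat-GOF mouse above every Ctrl mouse and 1.16% had every one below. The median log2 fold change of the 10 genes was 0.051, beside 0.00011 over all genes tested. RNA of a whole gland is an average over its cell types, and fewer cells of a type and less RNA per cell cannot be told apart.

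**Figure D1:**
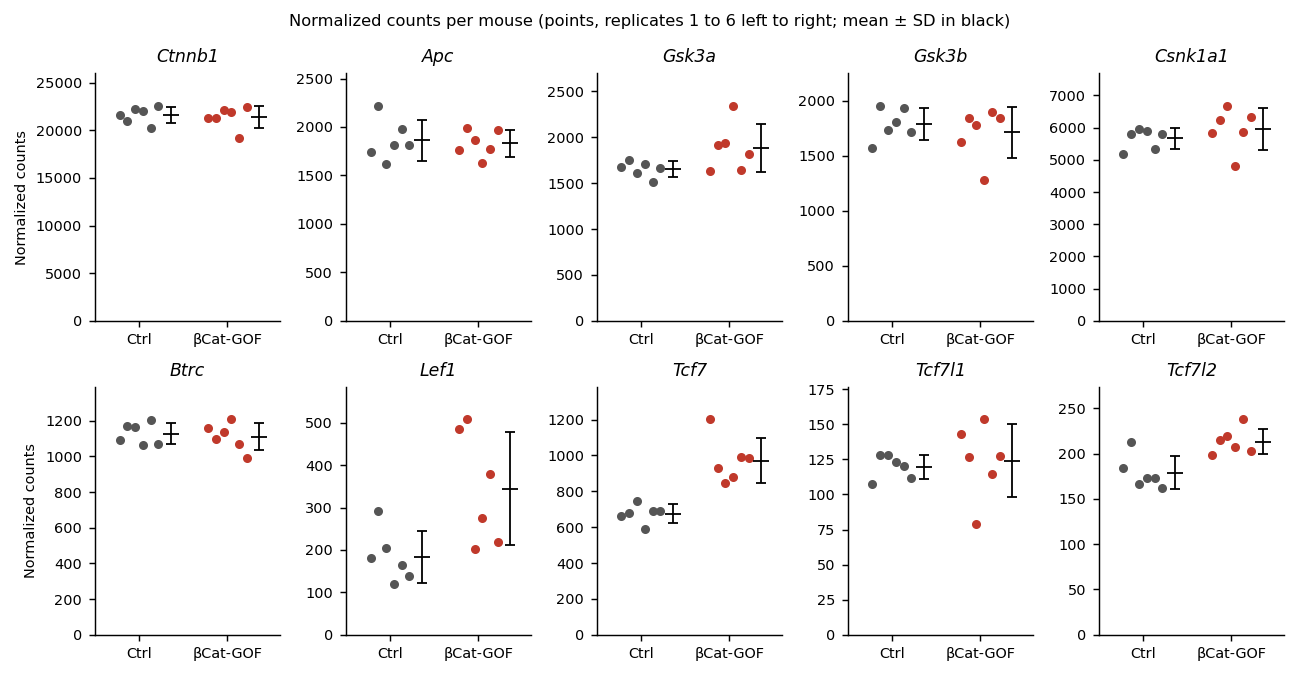
Normalized counts of the 10 genes in each mouse (points, linear axes from 0), with the mean ± SD of the 6 mice of each group in black. The groups overlap in every panel except *Tcf7*, and the βCat-GOF points of *Lef1* run from 203 to 508.

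*Ctnnb1* had 20273, 21817 and 22606 normalized counts (lowest, median and highest) in Ctrl mice and 19229, 21641 and 22432 in βCat-GOF mice. The groups overlapped almost fully, and 1 βCat-GOF mouse, βCat-GOF 5, lay below all Ctrl mice. The log2 fold change was -0.02 (SE 0.08, 95% interval -0.20 to 0.15, adjusted p = 0.907 by edgeR). The count sums the mutant and the normal allele, and it says nothing of the amount of protein. *Ctnnb1* had the lowest coefficient of variation of the 10 genes in both groups, 3.97% in Ctrl and 5.38% in βCat-GOF mice. In its exons, 15.1% of bases also belong to other genes, nearly all to *Ulk4* on the opposite strand, which had 60.8 to 117 normalized counts across the 12 mice.

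*Apc*, the scaffold on which β-catenin is handed to its kinases and to the ligase, had 1613, 1812 and 2221 normalized counts in Ctrl and 1626, 1818 and 1985 in βCat-GOF mice. The βCat-GOF range lay inside the Ctrl range, and the log2 fold change was -0.04 (SE 0.09, 95% interval -0.22 to 0.15, adjusted p = 0.860 by edgeR). *Csnk1a1*, the casein kinase 1α gene that primes β-catenin at serine 45, had 5174, 5793 and 5965 in Ctrl and 4795, 6042 and 6687 in βCat-GOF mice. Its βCat-GOF mice spread to both sides of the Ctrl mice, with 3 above all of them and 1 below. Its log2 fold change was 0.06 (SE 0.09, 95% interval -0.12 to 0.25, adjusted p = 0.728).

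The GSK3 kinases, which phosphorylate the next residues, are encoded by a pair of genes. *Gsk3a* had 1515, 1672 and 1755 normalized counts in Ctrl and 1629, 1869 and 2345 in βCat-GOF mice, with 4 βCat-GOF mice above all Ctrl mice. Its log2 fold change was 0.18 (SE 0.09, 95% interval -0.02 to 0.37, adjusted p = 0.285 by edgeR). *Gsk3b* had 1570, 1770 and 1956 in Ctrl and 1283, 1810 and 1900 in βCat-GOF mice, and its log2 fold change was -0.07 (SE 0.10, 95% interval -0.28 to 0.14, adjusted p = 0.727). A single mouse, βCat-GOF 4, had both the highest *Gsk3a* and the lowest *Gsk3b* of all 12. Its library also had the fewest counts of the 12, 13484675, and whether that bears on these values was not tested. Per length, *Gsk3a* stood at 3.16 ± 0.32 times *Gsk3b* in Ctrl and 3.85 ± 1.18 times in βCat-GOF mice (SD, n = 6 each), and at 6.20 times in βCat-GOF 4. Without this mouse the log2 fold change was 0.10 for *Gsk3a* (adjusted p = 0.426 by edgeR) and -0.0027 for *Gsk3b* (adjusted p = 0.988). That mouse also had the lowest *Csnk1a1* of all 12 mice. In *Gsk3a*, 28.3% of exonic bases overlap *9130221H12Rik* on the opposite strand, which had 110 to 161 normalized counts in Ctrl and 103 to 128 in βCat-GOF mice. Whether the counting used strand is not given in the sources used here.

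*Btrc*, whose product recognizes phosphorylated β-catenin for ubiquitination, had 1061, 1127 and 1206 normalized counts in Ctrl and 992, 1117 and 1207 in βCat-GOF mice. The groups overlapped nearly fully, and the log2 fold change was -0.03 (SE 0.07, 95% interval -0.18 to 0.13, adjusted p = 0.860 by edgeR). The exact permutation test over all 924 splits of the mice gave two-sided p values of 0.052 for *Gsk3a* and 0.364 to 0.760 for *Apc*, *Csnk1a1*, *Gsk3b* and *Btrc*.

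*Tcf7*, which encodes TCF1, had 589, 684 and 748 normalized counts in Ctrl and 846, 957 and 1200 in βCat-GOF mice. Every βCat-GOF mouse was above every Ctrl mouse. The log2 fold change was 0.52 (SE 0.10, 95% interval 0.31 to 0.72, adjusted p = 0.0100 by edgeR), a fold of 1.43, and the exact permutation test gave p = 0.0022, the smallest that 6 against 6 mice allow. *Tcf7* passed an adjusted p of 0.05 without any 1 mouse, with log2 fold changes of 0.45 to 0.55. Its fold sits close to the cut-off of 1.4, and it fell below that cut-off without Ctrl 4 (log2 fold change 0.48) and without βCat-GOF 1 (0.45), the mouse with the highest value.

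*Lef1* had 120, 173 and 291 normalized counts in Ctrl and 203, 327 and 508 in βCat-GOF mice. By mouse, the Ctrl values were 182, 291, 204, 120, 164 and 140 and the βCat-GOF values 485, 508, 203, 275, 379 and 218, in the order of replicates 1 to 6. The βCat-GOF mice 1, 2 and 5 lay above all Ctrl mice, and the other 3 lay within the Ctrl range, whose top was Ctrl 2. The log2 fold change was 0.90 (SE 0.27, 95% interval 0.32 to 1.48, adjusted p = 0.0845 by edgeR), and the exact permutation test gave an unadjusted p of 0.0238. The adjusted p was 0.0147 by DESeq2 and 0.0483 without Ctrl 2. βCat-GOF 1 and 2, whose labels share a stem, had the highest values, and without both the log2 fold change was 0.54. Whether *Lef1* and *Tcf7* changed by different amounts was not tested.

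*Tcf7l2*, which encodes TCF4, had 162, 173 and 213 normalized counts in Ctrl and 198, 211 and 238 in βCat-GOF mice. The Ctrl mice other than Ctrl 2 lay below all βCat-GOF mice, and 3 βCat-GOF mice lay above Ctrl 2. Its log2 fold change was 0.24 (SE 0.11, 95% interval 0.02 to 0.47, adjusted p = 0.216 by edgeR) and its unadjusted exact permutation p was 0.0087. *Tcf7l1*, which encodes TCF3, the member best known as a repressor, had 108, 122 and 128 in Ctrl and 78.7, 127 and 153 in βCat-GOF mice. Its βCat-GOF mice spread to both sides of Ctrl, and its log2 fold change was 0.04 (SE 0.16, 95% interval -0.31 to 0.38, adjusted p = 0.922).

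**Figure D2:**
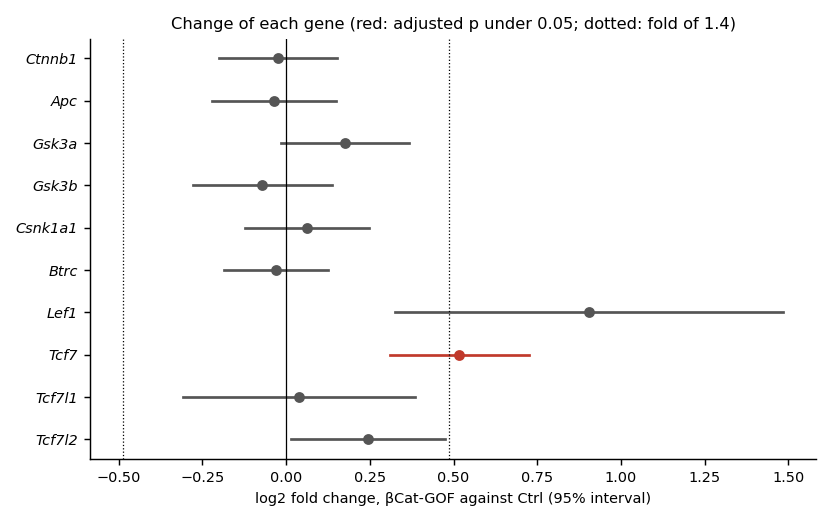
The log2 fold change of each gene, βCat-GOF against Ctrl, with its 95% interval from edgeR. The interval of *Tcf7* (0.31 to 0.72, red) starts well above 0, that of *Lef1* (0.32 to 1.48) is the widest, and the intervals of *Ctnnb1* and of the 5 genes of the destruction complex include 0 and lie inside the dotted lines at a fold of 1.4.

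Per length, in RPKM (counts scaled to the kilobases of merged exons and to the library's total), *Ctnnb1* stood far above the others in Ctrl adrenals, at 212 ± 8.33 (mean ± SD, n = 6 mice), higher than 99.1% of the 14827 genes ranked. *Gsk3a* followed at 29.0 ± 1.57 and *Csnk1a1* at 27.5 ± 1.91, whose ranges overlapped. *Tcf7* came next at 13.1 ± 1.08, then *Gsk3b* at 9.26 ± 0.91, *Apc* at 5.89 ± 0.74 and *Btrc* at 3.39 ± 0.22, each with a range apart from its neighbours. The lowest were *Tcf7l1* at 1.56 ± 0.13, *Lef1* at 1.06 ± 0.36 and *Tcf7l2* at 1.04 ± 0.11, and *Lef1* overlapped both of the others. *Lef1* was higher than 19.9% of the genes ranked and *Tcf7* than 74.0%. In βCat-GOF mice *Tcf7* was at 18.3 ± 3.95 and *Lef1* at 1.97 ± 0.90, which placed *Lef1* above *Tcf7l1*, though with overlapping ranges. With the longest transcript as the length, *Csnk1a1* moved to the second place in Ctrl (70.6 RPKM), *Btrc* to the fifth (12.2), and *Lef1* (2.56) and *Tcf7l2* (2.45) above *Tcf7l1* (2.01), so the order of these genes depends on the length used.

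**Figure D3:**
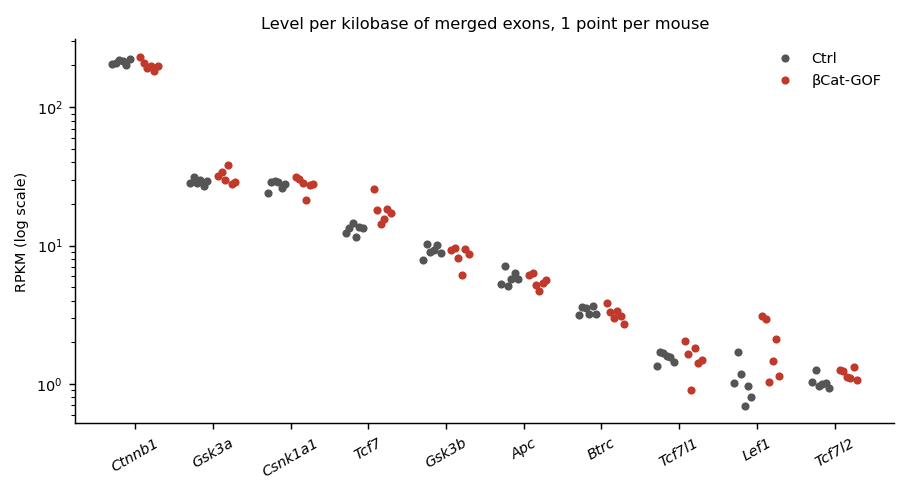
RPKM over merged exons of each gene in each mouse, on a log axis, with genes in the order of their Ctrl mean. *Ctnnb1*, at 212 in Ctrl, lies above every other gene in both groups, and *Tcf7*, at 13.1, lies above the other TCF/LEF genes.

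Of the summed RPKM over merged exons of the 4 TCF/LEF genes, *Tcf7* made up 78.2% ± 2.22 in Ctrl and 79.6% ± 2.66 in βCat-GOF mice (SD, n = 6 each). *Lef1* made up 6.27% ± 1.74 and 8.29% ± 2.59, *Tcf7l1* 9.30% ± 0.81 and 6.80% ± 1.34, and *Tcf7l2* 6.21% ± 0.67 and 5.31% ± 0.81. *Lef1* and *Tcf7* together ranged from 82.3% to 85.6% in Ctrl and from 85.4% to 89.7% in βCat-GOF mice, so the groups met at their edges. The sum itself was 16.8 ± 1.4 RPKM in Ctrl and 23.0 ± 5.05 in βCat-GOF mice. RPKM divides by library totals alone, without the size factors of the normalized counts. Differences of RPKM between mice or groups can therefore carry differences in library composition. The shares depend on the length used. With the longest transcript, *Tcf7* made up 66.6% ± 3.25 in Ctrl and 67.3% ± 3.84 in βCat-GOF mice, *Lef1* 12.0% ± 3.03 and 15.7% ± 4.52, *Tcf7l1* 9.62% ± 0.86 and 6.97% ± 1.39, and *Tcf7l2* 11.7% ± 1.11 and 9.97% ± 1.58. These shares follow from the levels above and were not tested.

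**Figure D4:**
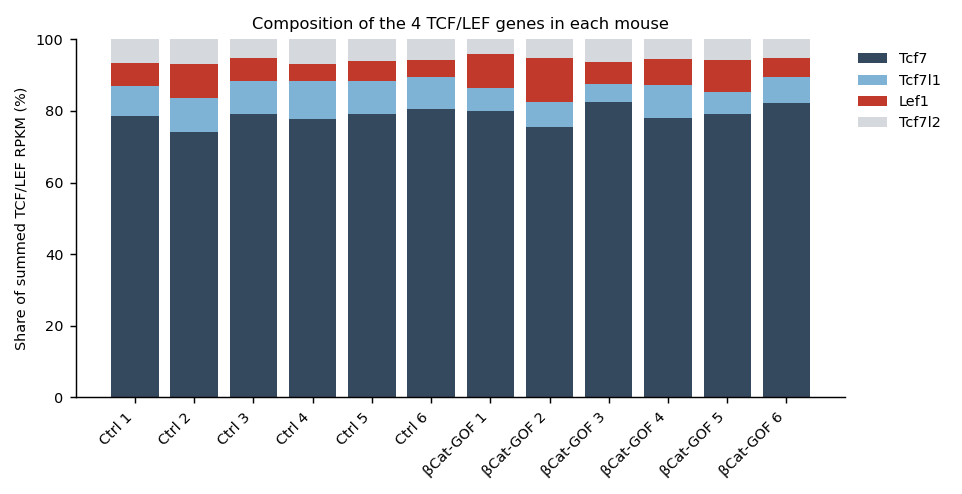
Share of each TCF/LEF gene in the summed RPKM (merged exons) of the 4 genes, 1 bar per mouse. *Tcf7* fills most of every bar (78.2% on average in Ctrl, 79.6% in βCat-GOF mice), and the *Lef1* share is largest in βCat-GOF 2, at 12.3%.

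Promoter windows were compared for the TCF/LEF core motif, since *Lef1* and *Tcf7* are known Wnt targets. RefSeq windows (GRCm38.p6), from 250 bases before to 50 after a transcript start, were found for 7 of the 10 genes, and *Apc*, *Csnk1a1* and *Btrc* had none. The letters CTTTGA or CTTTGT, on either strand, occurred in at least 1 window of 5 of the 7 genes, where 34.5% of the 27025 genes with a window had such a match. A gene with several windows has more chances of a match, and *Lef1* had 4 windows. Of all 32851 windows, 31.2% had a match. Whether the 7 genes differ from other genes was not tested. The windows of *Ctnnb1* and *Tcf7* had no match, and sequence outside the windows was not searched. The only window with more than 1 match was the last of the 4 *Lef1* windows. It lies at a start inside the gene, with matches 180, 146 and 120 bases before that start. The other *Lef1* windows, nearer the annotated gene start, had no match. The *Tcf7l2* match also lay in a window at a start inside the gene, and the window near its gene start had none. A match describes the sequence and does not show binding. The *Lef1* window with matches and a *Tcf7* window, at the start that is also the annotated *Tcf7* gene start, are given. Matches are in capitals, and both windows are on the strand of the gene.
Lef1, chr3:131156044-131156343, plus strand: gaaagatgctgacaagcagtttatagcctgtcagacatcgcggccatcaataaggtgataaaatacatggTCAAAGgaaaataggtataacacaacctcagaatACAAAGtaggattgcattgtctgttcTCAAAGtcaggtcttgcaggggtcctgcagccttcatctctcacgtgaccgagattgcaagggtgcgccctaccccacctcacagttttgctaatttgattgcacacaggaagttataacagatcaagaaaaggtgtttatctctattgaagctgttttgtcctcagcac
Tcf7, chr11:52282965-52283264, minus strand: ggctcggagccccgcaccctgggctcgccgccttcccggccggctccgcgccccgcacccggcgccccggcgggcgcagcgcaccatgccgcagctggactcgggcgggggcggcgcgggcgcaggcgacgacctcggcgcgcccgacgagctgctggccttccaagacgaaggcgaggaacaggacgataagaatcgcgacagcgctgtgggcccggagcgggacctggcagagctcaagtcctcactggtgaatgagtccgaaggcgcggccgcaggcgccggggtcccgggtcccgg

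*Tcf7* lies at chr11:52252371-52283014 on the minus strand and shares no exonic base with another gene. *Lef1* lies at chr3:131110471-131224356 on the plus strand, and 13.7% of its exonic bases overlap *Gm43352* on the opposite strand. No near-identical copy of any of the 10 genes was found elsewhere in the annotation.

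Other genes of the pathway were counted in lists, against the same 2.16% of all genes called higher and 1.52% called lower. Among the scaffold, kinase and phosphatase genes around the destruction complex, 26 of 27 were tested, and 0 were called higher and 0 lower by edgeR (6 and 2 at an unadjusted p under 0.05, where 9.73% and 10.7% of all genes were), with a median log2 fold change of 0.06. The smallest adjusted p values were those of *Axin2*, the scaffold gene that is itself a Wnt target, and of *Ppp2r5b*, a regulatory subunit of protein phosphatase 2A. *Axin2* had 511 to 891 normalized counts in Ctrl and 786 to 1784 in βCat-GOF mice, with 5 βCat-GOF mice above all Ctrl mice (log2 fold change 0.70, SE 0.20, adjusted p = 0.0739 by edgeR). The study names *Axin2* among the Wnt genes it found higher. *Ppp2r5b* had 1582 to 1733 in Ctrl and 1653 to 2613 in βCat-GOF mice (log2 fold change 0.31, SE 0.09, adjusted p = 0.0782).

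Among the 9 partners of the ubiquitin ligase, 1 was called higher and 0 lower, with a median log2 fold change of 0.01. The gene called was *Usp7*, a deubiquitinase, with 2153 to 2434 normalized counts in Ctrl and 2487 to 2935 in βCat-GOF mice, so that the groups did not overlap (log2 fold change 0.25, SE 0.06, adjusted p = 0.0474 by edgeR). *Fbxw11*, the paralogue of *Btrc*, had a log2 fold change of 0.01 (SE 0.07, adjusted p = 0.951).

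Among the 26 nuclear co-factors of TCF/LEF, 0 were called higher and 1 lower, with a median log2 fold change of 0.05. *Ctnnbip1*, whose product ICAT binds β-catenin and keeps it from TCF, fell from 676 to 1125 normalized counts in Ctrl to 463 to 713 in βCat-GOF mice (log2 fold change -0.54, SE 0.13, adjusted p = 0.0394 by edgeR), with 3 βCat-GOF mice below all Ctrl mice. Among the cadherins and catenins, 8 of 11 were tested, with 1 higher, 0 lower and a median of 0.00029. *Cdh6*, the K-cadherin gene, rose from 210 to 307 normalized counts in Ctrl to 253 to 612 in βCat-GOF mice (log2 fold change 0.79, SE 0.19, adjusted p = 0.0380). *Cdh1*, *Cdh3* and *Ctnna3* were below the filter.

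Among the Wnt target genes, 11 of 12 were tested, with 4 higher, 0 lower and a median log2 fold change of 0.67. Those that rose were *Notum*, a secreted enzyme that inactivates Wnt ligands (2.08), *Nkd1*, which acts on Dishevelled (1.81), *Apcdd1*, a membrane inhibitor (1.45), and *Rnf43*, a ligase that removes Wnt receptors (0.74, SE 0.15, adjusted p = 0.0134 by edgeR). In all 4, every βCat-GOF mouse lay above every Ctrl mouse, as in 1.61% of all genes. *Rnf43*, with the smallest fold of the 4, had 137 to 214 normalized counts in Ctrl and 226 to 333 in βCat-GOF mice. *Znrf3*, its paralogue, had a log2 fold change of 0.04 (SE 0.21, adjusted p = 0.934), and *Lgr5*, a receptor for R-spondins, one of -0.87 (SE 0.28, adjusted p = 0.106). *Fbxw11*, *Znrf3* and *Lgr5* were named after their values were seen.

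Markers of cell types were counted against the same 2.16% of all genes called higher and 1.52% called lower. Of 8 zG markers, 4 were called higher and 0 lower, and their summed level was 26323 to 40658 normalized counts in Ctrl and 36427 to 65436 in βCat-GOF mice. The βCat-GOF mice 1, 2 and 5, which had the highest *Lef1*, also had the highest sums, at 65436, 62267 and 52699. In Ctrl the 2 did not go together. Ctrl 2 had the highest *Lef1* (291) with a sum of 30538, and Ctrl 3 had the highest sum (40658) with *Lef1* at 204. The sum weighs abundant markers most, with *Dab2* at a mean of 22811 in βCat-GOF mice and *Kcnk9* at 1098. *Cyp11b2* itself was at 2987 to 8035 in Ctrl and 2056 to 9254 in βCat-GOF mice (adjusted p = 0.820 by edgeR). The part of the zG markers in the changes of *Lef1* and *Tcf7* was not tested. The sum of the 12 T lymphocyte genes was 141 to 238 in Ctrl and 122 to 160 in βCat-GOF mice, 1 of the 3 tested was called lower (*Cd4*, log2 fold change -1.35, adjusted p = 0.0330) and 0 were called higher, and *Cd3e* had at most 7.50 normalized counts in any mouse. None of the 12 was at 0 in every mouse. In the other 9 marker lists (zona fasciculata, X-zone, medulla, capsule, endothelium, B lymphocytes, macrophages, adipocytes and red blood cells), 1 gene was called higher, *Akr1b7* of the zona fasciculata (log2 fold change 1.48, adjusted p = 0.0458), and 1 lower, *Adgre1* of macrophages (-0.78, adjusted p = 0.0459).

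**Figure D5:**
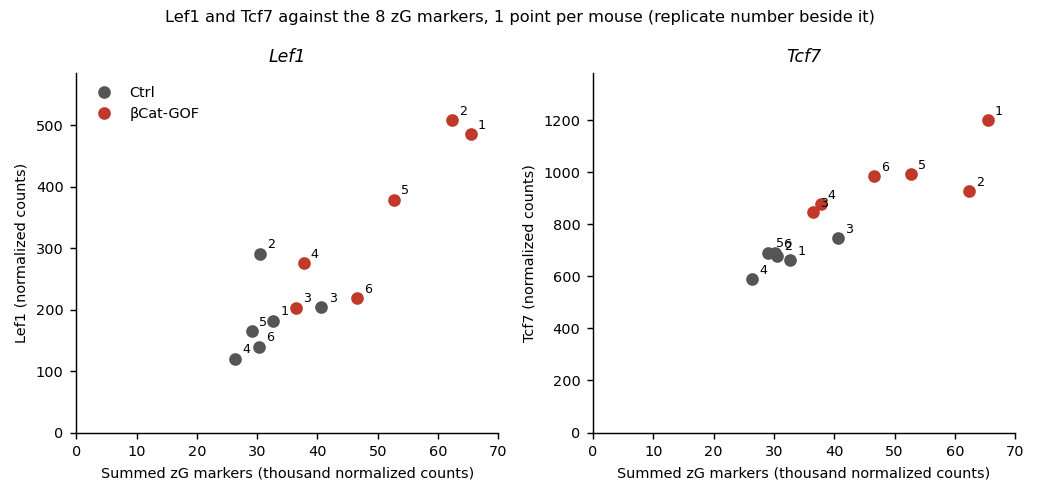
Normalized counts of *Lef1* (left) and *Tcf7* (right) against the summed normalized counts of the 8 zG markers, 1 point per mouse with its replicate number. The βCat-GOF mice 1, 2 and 5 have the highest zG sums (65436, 62267 and 52699) and the highest *Lef1*, while all 6 βCat-GOF mice lie above all Ctrl mice for *Tcf7*.

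Within a genotype, 10 relations among these genes and *Axin2* were computed over 6 mice, and none had an adjusted p under 0.05. The smallest p was that of *Lef1* and *Axin2* in βCat-GOF mice, with Pearson's r = 0.85 (exact permutation p = 0.0125, adjusted p = 0.125). Their Spearman's rho was 0.89 (exact permutation p = 0.0333, adjusted p = 0.292), and r was 0.87 without the 2 mice farthest from the *Lef1* median. Between *Tcf7* and *Axin2* in βCat-GOF mice, r was 0.87 (exact permutation p = 0.0375, adjusted p = 0.188) and rho 0.54 (exact permutation p = 0.297, adjusted p = 0.705). There r was -0.43 without 2 mice, so in βCat-GOF mice this relation rests on those mice. In Ctrl mice the same pair had r = 0.72 (exact permutation p = 0.0806, adjusted p = 0.269) and rho = 0.83 (exact permutation p = 0.0583, adjusted p = 0.292), and r = 0.85 without 2 mice. *Ctnnb1* had r = -0.29 with *Lef1* (exact permutation p = 0.725, adjusted p = 0.840) and rho = -0.43 (exact permutation p = 0.419, adjusted p = 0.705) in βCat-GOF mice, and r = -0.09 without 2 mice.

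The median coefficient of variation of the 10 genes was 7.35% in Ctrl and 12.0% in βCat-GOF mice, beside 11.7% and 16.7% over the 11431 genes with a base mean above 100. *Lef1* had the largest of the 10 in both groups, 33% in Ctrl and 38.6% in βCat-GOF mice. In 8 of the 10 genes the coefficient was larger in βCat-GOF mice, a share of 80.0% beside 72.5% of those 11431 genes.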

How the data were processed

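Per the labels and the study's methods, the authors used mm10 as the genome and STAR as the aligner, after adapter removal by cutadapt. Their counts come from featureCounts 1.4.4, and reads with several mapping positions were left out. The authors deposited counts for 39017 genes and a signal table, the same counts divided by 1 factor per library. The authors used DESeq2 1.6.3. The annotation release and strand setting are not given in the sources used here. No column was left unmapped (0). Library totals are 13484675 to 25625494 counts, and counting noise is large for genes with few counts.

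The 10 genes and all lists were chosen with earlier results of these data known. Counts were tested with edgeR 4.0.16 (TMM, filterByExpr, quasi-likelihood test, two-sided, Benjamini-Hochberg adjustment over 14953 genes) in R 4.3.3. Normalized counts are counts over the median-of-ratios size factors of DESeq2. RPKM used merged exons of GENCODE M21 (GRCm38, which is mm10). Exact permutation tests of single genes used all splits of the 12 mice, are two-sided and are not adjusted. Relations used log2 CPM with a prior count of 2. Copies were searched for with blastn 2.17.0 (at least 95% identity over 10% of the longest transcript). Promoter sequences are from RefSeq. In simulated counts for this comparison, over 14823 genes, edgeR recovered 100 of 100 genes at a log2 fold of 2 and 89 of 100 at 1, with 10 false calls. Log2 folds under 1, as estimated for all 10 genes, were not simulated.

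Named were all 10 genes, every called gene of a pathway list (at most 6) or otherwise the 2 with the smallest adjusted p, and the 5 genes most like *Ctnnb1*, *Lef1* and *Tcf7*. Replicates were taken as separate mice because the study gives 6 female mice per group. Labels of 3 pairs share a stem, and the labels do not say whether such a pair is 1 mouse. No pair of libraries agreed within counting noise (chi-square per degree of freedom 16.8 to 145 over 30 pairs). The pairs that share a stem were at 45.8 (Ctrl 1 and 2), 42.5 (Ctrl 3 and 4) and 41.9 (βCat-GOF 1 and 2). This measure cannot tell 2 mice from 2 samples of 1 mouse. Alternatives were DESeq2 1.42.0 without shrinkage, DESeq2 size factors in edgeR, no filter, at least 10 counts in every mouse, each mouse left out, mice with shared label stems left out, and the longest transcript as length. The deposited size factors were added after the data were examined. Immunostaining and other assays were not used here. Python 3.11.15, scipy 1.17.1 and matplotlib 3.10.9 were used.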

Additional observations from a re-analysis of the deposited data

Results flagged for a closer look

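*Ctnnb1* in βCat-GOF 5 was far from the other βCat-GOF mice, at 19229 normalized counts. Its gap to the nearest mouse was 0.650 of the range of the 6 mice, above the critical value of Dixon's test at the 95% level. Each of the 10 genes was examined in each genotype, 20 groups in all, of which chance alone flags about 1 in 20. Without this mouse the log2 fold change of *Ctnnb1* was 0.01 in place of -0.02, with an adjusted p of 0.950 by edgeR.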

How the results depend on the processing

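Over the distinct refits of single genes, 182 kept direction and side of the threshold, 6 turned sign and 2 newly passed. *Tcf7* passed in 19 of 19 alternatives (log2 fold change 0.44 to 0.55) and *Lef1* in 2 of 19 (0.54 to 1.09, adjusted p 0.0147 to 0.174). The sign turned for estimates near 0. With each mouse left out in turn, *Apc* ranged from -0.066 to 0.024 (above 0 without Ctrl 2), *Ctnnb1* from -0.041 to 0.014 (above 0 without βCat-GOF 5, whose label starts with a number of its own) and *Tcf7l1* from -0.032 to 0.137 (-0.0042 without βCat-GOF 1, lowest without βCat-GOF 4). *Tcf7l1* was at -0.023 without the mice that repeat a label stem and at -0.038 without both βCat-GOF 1 and 2. DESeq2 called 2 of the 10 genes higher, 2 past the 3 cut-offs, and over all genes 675 higher and 569 lower, in place of 323 and 228, with 363 and 283 past the cut-offs, in place of 222 and 130. Without the mice that repeat a stem, 0 of the 10 genes passed the cut-offs, and over all genes 346 were lower, 228 of them past the cut-offs. Without both βCat-GOF 1 and 2, 0 of the 10 passed the cut-offs, and over all genes 905 were higher and 835 lower, 440 and 470 past the cut-offs. Without βCat-GOF 5, 125 genes were lower, 80 past the cut-offs. Leaving out each mouse in turn gave 1 to 2 of the 10 genes higher, 0 lower in every fit, and 0 to 2 past the cut-offs upwards (0 without Ctrl 4 or βCat-GOF 1, 2 without Ctrl 2). Over all genes it gave 195 (without Ctrl 6) to 560 (without βCat-GOF 1) higher and 92 to 395 lower, with 146 to 340 and 61 to 223 past the cut-offs at the same mice. The cause was not tested. No paired analysis was possible because the labels carry no replicate number that the groups share.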

Other observations

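The genes whose log2 CPM followed *Lef1* most closely over the 12 mice, after each genotype's mean was removed, were *Kazn* (r = 0.97), *Kif3c* (0.96), *Synj2* (0.95), *Cux2* (0.94) and *Lrrk1* (0.94), and none of these 5 passed the test between genotypes (smallest adjusted p 0.0935 by edgeR, for *Kif3c*). For *Tcf7* they were *Ccdc66* (0.93), *Trib2* (0.90), *4930511M06Rik* (0.89), *Fstl1* (0.89) and *Nicn1* (0.89). For *Ctnnb1* they were *Lefty2* (0.93), *Slc37a4* (0.92), *Bhlhe41* (0.91), *Ccdc106* (0.90) and *Fam118a* (0.88). The 12 points of each share library and depth, these genes were picked from all genes tested as the highest values, and the r values are a description with no p.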
